A study of Homo sapiens with 10 samples.

Results

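The methylation peaks of HEK293T cells with a knockdown of KCNQ1OT1_K (labelled KD, and K-KD in the name of its peak list) were set against those of the cells labelled EV. On chromosomes 1 to 22 and X the K-KD list held 53919 peaks and the EV list 87815, which together are 141734 of the 284960 peaks in the 5 lists used. A peak was called shared when at least 1 bp of it lay under a peak of the other list. K-KD peaks without such a partner are called gained, EV peaks without one are called lost, and the rest are called kept. HEK293T is an established human embryonic kidney cell line, and methylated DNA immunoprecipitation sequencing (MeDIP-seq) captures sonicated genomic DNA with an antibody against 5-methylcytosine. There were 10 samples, with 1 immunoprecipitated and 1 input library from every condition. The conditions were KD, K rep KO, K non-rep KO, EV and WT, all in this cell line. How the knockdown was made, and what EV, K, rep and non-rep stand for, is not given in the labels, nor is whether a condition rests on 1 clone. With 1 list per condition no value below has a replicate, so no test between conditions was possible and the intervals given cover counting error only.

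KCNQ1OT1 codes for a long RNA without a protein product, read from the strand opposite to the potassium channel gene KCNQ1 on chromosome 11. It is known for silencing neighbouring genes on the paternal chromosome of an imprinted domain. DNA methylation in mammals sits mainly at cytosines that precede guanines (CG sites). It is dense in the bodies of active genes and over repeats near centromeres, and it is usually low at promoters rich in CG sites. MeDIP responds to the local density of methylated CG sites, so a peak says that captured fragments were enriched there and gives no methylation level of a site.

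KCNQ1OT1 (chromosome 11, 2608328 to 2699994, with 2000 bp added on either side) held 0 K-KD and 2 EV peaks. The lists hold no RNA, so the knockdown itself could not be checked. KCNQ1, which surrounds it, held 14 K-KD and 45 EV peaks. Of the K-KD peaks 8 were gained, and of the EV peaks 6 were kept and 39 lost. The highest −log10 q in KCNQ1 was 5.70 in K-KD and 9.23 in EV, so its other peaks lay at or below these values.

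Promoter windows show sequence touched by a gained, a kept or a lost peak, which need not cover the whole window. The windows run from 250 bases before to 50 after a gene's start and were taken from RefSeq (GRCh38.p14). The windows printed are those of the 2 peaks with the highest −log10 q of each class that touch a window. They read 5′ to 3′ on the gene's own strand, with each CG in capitals. CG reads the same on both strands. The class beside each name compares K-KD with EV and leaves the other 3 lists out.
NXN (peak in K-KD, none in EV, chr17:864062-864361, minus strand): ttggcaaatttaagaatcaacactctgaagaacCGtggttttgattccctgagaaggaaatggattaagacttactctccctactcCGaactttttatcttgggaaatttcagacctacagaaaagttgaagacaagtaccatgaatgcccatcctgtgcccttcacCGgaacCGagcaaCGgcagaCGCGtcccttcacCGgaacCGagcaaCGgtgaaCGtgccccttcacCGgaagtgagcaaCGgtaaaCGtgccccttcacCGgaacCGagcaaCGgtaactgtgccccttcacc
PRR20B (peak in K-KD, none in EV, chr13:57147238-57147537, plus strand): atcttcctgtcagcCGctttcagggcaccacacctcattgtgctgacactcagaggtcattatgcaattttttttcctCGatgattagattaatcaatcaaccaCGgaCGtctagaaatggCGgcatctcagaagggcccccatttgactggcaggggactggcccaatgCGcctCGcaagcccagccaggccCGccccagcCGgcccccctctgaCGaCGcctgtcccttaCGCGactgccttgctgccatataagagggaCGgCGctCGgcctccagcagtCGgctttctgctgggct
LINC01667 (peak in K-KD and EV, chr21:9821012-9821311, minus strand): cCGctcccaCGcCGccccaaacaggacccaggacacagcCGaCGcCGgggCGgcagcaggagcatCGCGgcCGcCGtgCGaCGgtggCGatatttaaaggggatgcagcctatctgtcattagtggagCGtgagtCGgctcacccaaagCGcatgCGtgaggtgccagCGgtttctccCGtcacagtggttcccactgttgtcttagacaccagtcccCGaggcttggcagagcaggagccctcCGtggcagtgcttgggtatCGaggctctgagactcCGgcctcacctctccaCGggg
LOC401357 (peak in K-KD and EV, chr7:56812687-56812986, minus strand): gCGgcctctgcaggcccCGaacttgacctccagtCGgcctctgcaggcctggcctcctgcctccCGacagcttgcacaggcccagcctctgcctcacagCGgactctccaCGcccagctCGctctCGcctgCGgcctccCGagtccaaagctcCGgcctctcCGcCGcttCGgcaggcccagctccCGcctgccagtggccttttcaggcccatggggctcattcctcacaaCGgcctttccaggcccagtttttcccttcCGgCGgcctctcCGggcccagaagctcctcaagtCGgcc
LOC105378947 (peak in EV, none in K-KD, chr1:611248-611547, minus strand): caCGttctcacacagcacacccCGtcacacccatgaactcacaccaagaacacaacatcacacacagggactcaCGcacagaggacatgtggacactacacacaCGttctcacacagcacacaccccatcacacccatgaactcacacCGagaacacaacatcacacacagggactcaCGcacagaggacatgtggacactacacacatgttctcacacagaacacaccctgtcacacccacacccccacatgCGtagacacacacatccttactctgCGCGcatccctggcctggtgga
PNMA6E (peak in EV, none in K-KD, chrX:153401301-153401600, minus strand): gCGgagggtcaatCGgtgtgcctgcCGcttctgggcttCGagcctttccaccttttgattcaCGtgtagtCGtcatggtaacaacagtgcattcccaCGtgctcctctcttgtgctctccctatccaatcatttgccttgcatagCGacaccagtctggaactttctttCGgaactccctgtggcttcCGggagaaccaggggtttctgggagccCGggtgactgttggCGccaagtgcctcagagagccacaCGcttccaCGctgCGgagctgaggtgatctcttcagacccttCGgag
The NXN window printed, 1 of 2 windows of the gene for nucleoredoxin, held 17 CG, and 46.1% of all windows held as many or more. The other NXN window held 47 CG and had no peak in K-KD or EV. The 332 bp K-KD peak spanned the whole printed window, and the same short unit with CG sites recurs along the last part of the sequence. PRR20B has near-identical family members, so the placement of its reads is uncertain. Its window also held 17 CG and lay under a K-KD peak of 1896 bp. The kept windows had more CG: 25 at LINC01667, a non-coding RNA gene of chromosome 21, and 20 at LOC401357 of chromosome 7. Over LINC01667 the peak was 4564 bp wide in K-KD and 4567 bp in EV. Over LOC401357 it was 8083 bp in K-KD and 8589 bp in EV, so both kept peaks had nearly the same extent in the 2 lists. The lost windows had 9 CG at LOC105378947 and 16 CG at PNMA6E of the X chromosome. The EV peak covered all 300 bp at PNMA6E but only 18 bp at LOC105378947, so most bases printed there lie outside the peak. Both knockout lists also had a peak at the place of the LOC105378947 peak, and K rep KO had one at those of PNMA6E and PRR20B.

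Between K-KD and EV, of all 34961 windows 416 lay under a peak in K-KD alone, 568 under peaks of both lists and 1051 under a peak in EV alone. The median number of CG was 15 with a peak in K-KD alone, 17 with a peak in both and 13 with a peak in EV alone, beside 14 over all windows. Windows with 20 or more CG made up 31.0% of those with a peak in K-KD alone, 40.1% of those with both and 27.1% of those with EV alone, beside 41.2% of all windows. Of the EV windows with 0 to 4 CG 18.3% (Wilson 95% interval 11.02 to 28.8) also had a K-KD peak. The share was 20.1% (15.98 to 24.9) with 5 to 9 CG, 36.5% (33.1 to 40.1) with 10 to 19 CG and 46.3% (41.4 to 51.2) with 20 to 29 CG. It was 38.7% (30.6 to 47.5) with 30 CG or more. Promoter peaks were most frequent at 10 to 19 CG in both lists, at 8.23% of windows in K-KD and 13.6% in EV. At 30 CG or more they were at 1.03% of windows in K-KD and 1.58% in EV.

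Gained peaks numbered 22468, or 41.7% of the K-KD list (41.3 to 42.1). Lost peaks numbered 56947, or 64.8% of the EV list (64.5 to 65.2). The kept peaks were 31451 in K-KD and 30868 in EV, since a wide peak of one list can lie over several of the other. By length, the gained peaks covered 11.003 Mb and the kept peaks 27.7 Mb of K-KD, and in EV the kept peaks covered 32.5 Mb and the lost peaks 31.5 Mb. The bases covered by both lists came to 22.7 Mb, which is 58.7% of the K-KD bases and 35.5% of the EV bases. Depth was close: the genome-wide background worked out from the peaks put K-KD at 0.943 of EV.

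Gained and lost peaks were alike in size, and both were smaller than kept ones. The median width was 412 bp for gained peaks, 625 bp for kept peaks of K-KD, 782 bp for kept peaks of EV and 451 bp for lost peaks. The number of fragments piled up at the summit, solved from the authors' fold enrichment and −log10 p, had a median of 10 in gained, 13 in kept K-KD, 15 in kept EV and 11 in lost peaks. The lowest pileup called was 6 in each list. The authors' −log10 q had a median of 3.38 in gained and 4.22 in kept peaks of K-KD, and of 5.95 in kept and 3.97 in lost peaks of EV. Of the widest peaks, over 2500 bp, K-KD gained 14 and kept 999, and EV kept 1511 and lost 55.

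The share of peaks found in both lists climbed with width and with pileup. In K-KD 32.2% of peaks up to 300 bp were shared, 43.1% of those up to 500 bp, 64.8% up to 1000 bp, 89.2% up to 2500 bp and 98.6% above that. In EV the shares over the same widths were 13.1%, 19.6%, 36.3%, 70.7% and 96.5%. With a pileup of at most 8 fragments 35.2% of K-KD and 11.6% of EV peaks were shared, and with more than 30 fragments 93.1% and 95.1%. At −log10 q above 20 the shares were 98.8% in K-KD and 96.5% in EV, so the strongest peaks of either list were nearly all in the other.

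**Figure D1:**
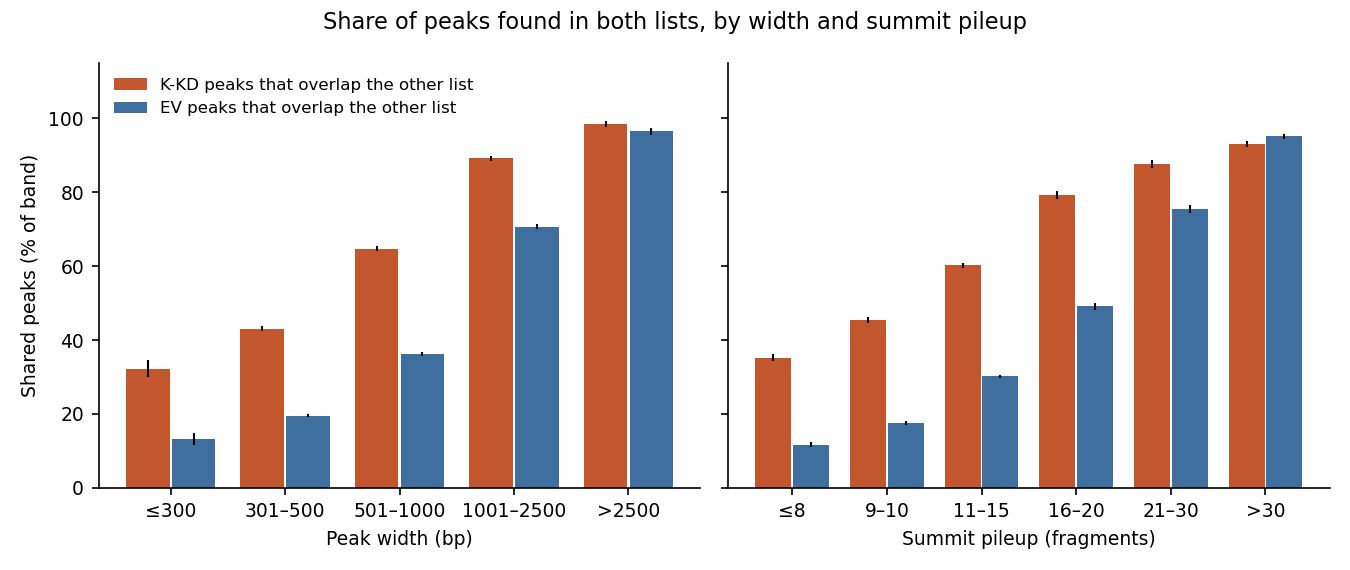
Share of K-KD peaks (orange) and EV peaks (blue) that overlap the other list, in percent of the band, by peak width in bp (left) and by fragments piled up at the summit (right); bars are Wilson 95% intervals and cover counting error only. Shares rise from 32.2% in K-KD and 13.1% in EV at up to 300 bp to 98.6% and 96.5% above 2500 bp, and at more than 30 fragments the 2 lists nearly meet.

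Kept peaks were also narrower in K-KD. Among 27797 K-KD peaks that overlapped exactly 1 EV peak, and that peak no other, the median width was 611 bp in K-KD and 757 bp in EV. The median ratio of K-KD to EV width was 0.906 (quartiles 0.658 to 1.10), and 64.8% of these peaks were narrower in K-KD. The summits lay a median of 132 bp apart, and 43.6% lay within 100 bp. Of the unshared peaks, many had a neighbour in the other list: 21.3% of gained peaks lay within 1000 bp of an EV peak, and 12.3% of lost peaks within 1000 bp of a K-KD peak. The median distance to the nearest peak of the other list was 3.69 kb for gained and 7.36 kb for lost peaks. EV is the denser of the 2 lists.

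By location, gained and lost peaks lay in genes more often than kept ones. The summit lay within a protein-coding gene for 55.8% of gained peaks (55.1 to 56.4), 51.0% of kept K-KD peaks, 51.2% of kept EV peaks and 58.6% of lost peaks (58.2 to 59.01). Genes of long non-coding RNAs alone took 7.20% of gained, 6.12% of kept K-KD, 6.16% of kept EV and 7.20% of lost peaks. The main contrast lay in the gene-free gaps, the longest stretch of each chromosome without an annotated gene, which on most chromosomes holds the centromere with its satellite repeats. They held 8.16% of gained peaks, 12.6% of kept K-KD peaks, 12.4% of kept EV peaks and 3.22% of lost peaks. Outside these gaps the difference between lost and kept EV peaks in their share within protein-coding genes was 2.05 percentage points, against 7.36 over all peaks.

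In the gene-free gaps the lists were of about equal length, and the difference in length lay outside them. The gaps held 5791 K-KD and 5664 EV peaks, a ratio of 1.02 (exact 95% interval 0.985 to 1.06). Elsewhere K-KD held 48128 peaks and EV 82151, a ratio of 0.586 (0.579 to 0.592). Of the EV peaks 67.7% were kept in gaps and 32.9% elsewhere. K rep KO had 6156 gap peaks and 52942 elsewhere, K non-rep KO 5140 and 48256, and WT 5903 and 24829. Outside the gaps EV was the longest of the 5 lists, and WT, not K-KD, the shortest. With 1 list per condition, few peaks in K-KD and many in EV cannot be told apart. When EV was reduced to its 53919 peaks of highest −log10 q, the ratio of K-KD to EV was 1.70 in gaps and 0.953 elsewhere. Limited to a −log10 q of at least 5 in both lists it was 0.910 and 0.424. The gap ratio divided by that elsewhere was 1.75 over all peaks, 1.79 at equal length and 2.14 at the stricter −log10 q. Gap peaks were wide, with a median of 966 bp in K-KD and 1008 bp in EV. Set at like widths, the 2 lists differed. Of EV peaks above 300 and up to 500 bp 43.5% were kept in gaps and 19.02% in protein-coding genes, and of those above 500 and up to 1000 bp 54.2% in gaps and 35.0% in protein-coding genes. Above 1000 and up to 2500 bp it was 82.6% in gaps and 67.4% in protein-coding genes. Of K-KD peaks above 300 and up to 500 bp 46.6% were shared with EV in gaps and 42.9% in protein-coding genes. In the wider bands the order turned, with 57.5% of K-KD peaks shared in gaps and 64.7% in protein-coding genes above 500 and up to 1000 bp, and 82.3% in gaps and 91.4% in protein-coding genes above 1000 and up to 2500 bp. Reads from satellite repeats align to many places, and no source used here says how such reads were treated.

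The gaps differed between chromosomes. K-KD held more gap peaks than EV on 10 chromosomes and fewer on 11. The gap of chromosome 7 held 608 K-KD and 435 EV peaks, a ratio of 1.40 (1.23 to 1.58). That of chromosome 11 held 336 K-KD and 259 EV peaks (1.30, 1.10 to 1.53), and that of chromosome 16 held 490 K-KD and 417 EV peaks (1.18, 1.03 to 1.34). On the other side, chromosome 3 held 178 gap peaks in K-KD and 233 in EV (0.764, 0.625 to 0.933), chromosome 6 held 156 in K-KD and 224 in EV (0.696, 0.564 to 0.858), and chromosome 18 held 545 in K-KD and 625 in EV (0.872, 0.776 to 0.9797). The chromosome 16 gap was the most alike between the lists, with 385 of its 417 EV peaks kept. In the chromosome 11 gap 138 of 259 EV peaks were kept, while 198 K-KD peaks were gained. The gap of chromosome 2 kept 8 of 38 EV peaks (21.1%), and the rest of that chromosome 27.2%.

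**Figure D2:**
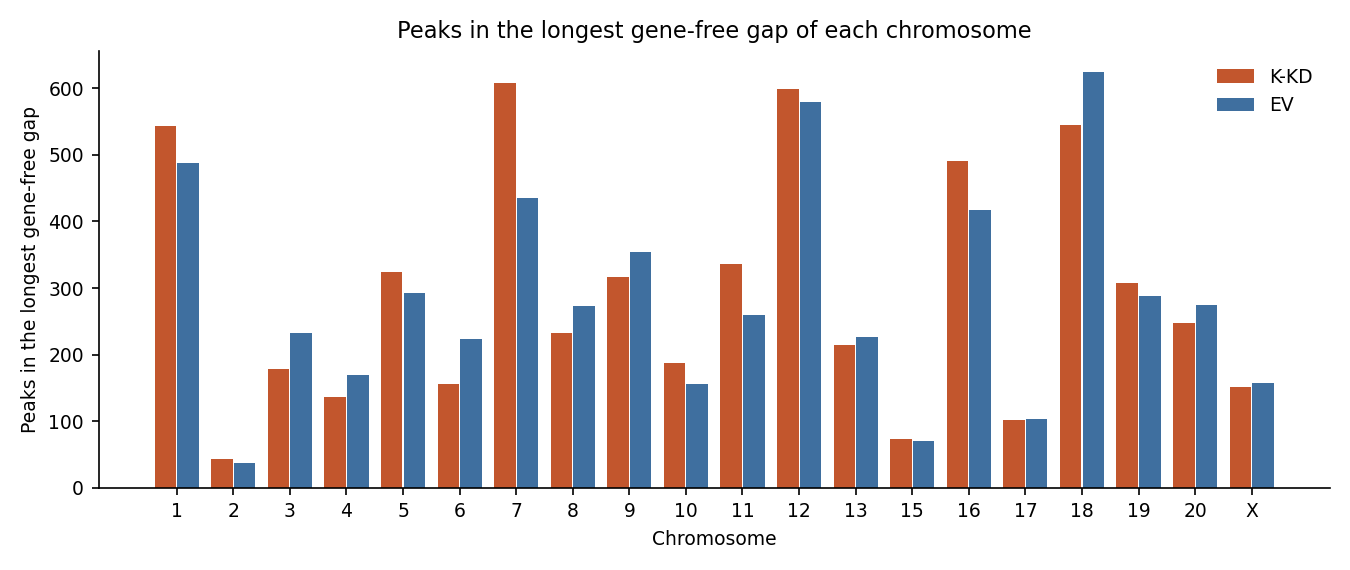
Number of K-KD peaks (orange, left bar) and EV peaks (blue, right bar) in the longest gene-free gap of each chromosome with at least 20 EV peaks there. Chromosome 7 stands out with 608 peaks in K-KD and 435 in EV, while chromosomes 3, 6 and 18 hold fewer in K-KD.

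Every chromosome held fewer peaks in K-KD. The ratio of K-KD to EV peak numbers ran from 0.544 on chromosome 2 (2747 against 5052) to 0.696 on chromosome 22 (2311 against 3320). The share of EV peaks kept ran from 27.2% (26.0 to 28.4) on chromosome 2 to 47.2% (44.5 to 49.8) on chromosome 18. Chromosome 18 is gene-poor, and 625 of its 1346 EV peaks lay in its gap. Without the gap its kept share was 30.8%. Chromosome 19, dense in genes, kept 40.3%, and 38.9% without its gap. Chromosome 16 kept 39.7%, and 34.8% without its gap. From the K-KD side, 50.4% of the peaks of chromosome 11 and 73.2% of those of chromosome 18 were shared with EV.

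**Figure D3:**
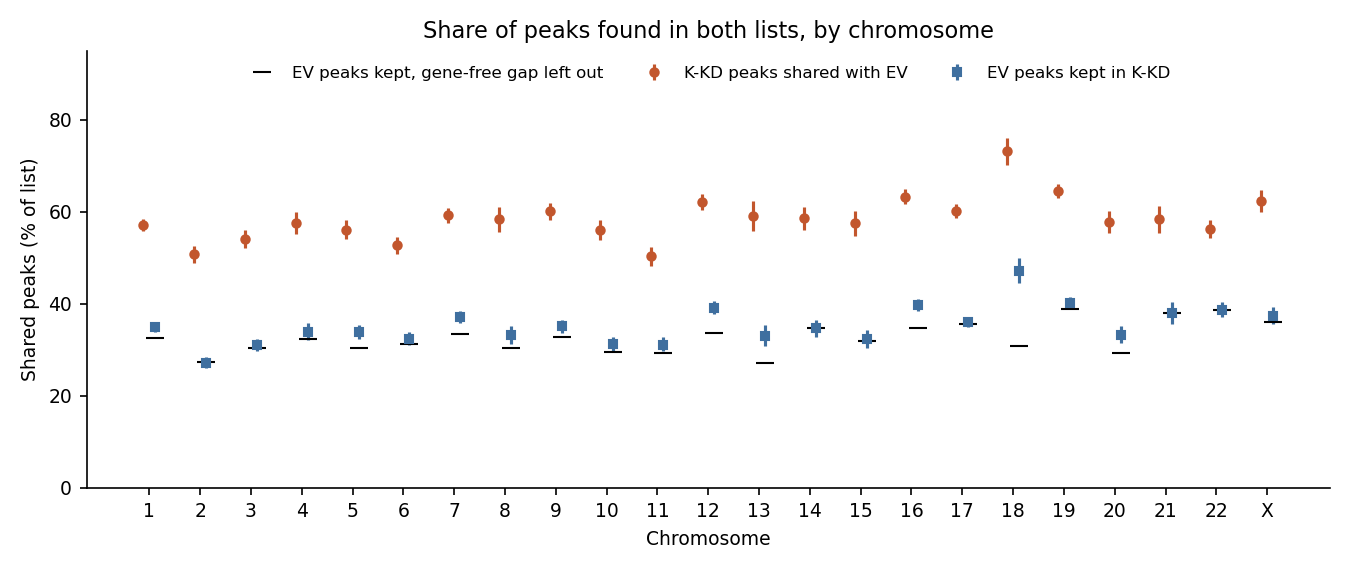
Share of K-KD peaks shared with EV (orange circles) and of EV peaks kept in K-KD (blue squares) by chromosome, in percent of the list, with Wilson 95% intervals (counting error only); black dashes give the EV share with the gene-free gap left out. Chromosome 18 is highest at 73.2% and 47.2%, and its dash lies at 30.8%, among the other chromosomes.

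Windows of 1 Mb count the gap peaks again, so their contrast is not separate from that of the gaps. In windows without a protein-coding gene K-KD held 6640 peaks and EV 6733 (ratio 0.986, 0.953 to 1.02), and 64.7% of the EV peaks were kept. With 1 to 5 genes the ratio was 0.571, with 6 to 15 genes 0.566 and with 16 or more 0.610. Of 544 windows with at least 50 EV peaks, the median kept 34.3%, the lowest 10.9% and the highest 96.6%. The lowest was 194000001 to 195000000 of chromosome 3, with 18 peaks in K-KD and 55 in EV, of which 6 were kept. It holds HES1, a transcriptional repressor of Notch signalling, and ATP13A3. Next came 3000001 to 4000000 of chromosome 1, with 38 K-KD and 109 EV peaks and 15 kept, which holds PRDM16, a regulator of brown fat and blood stem cells, and the p53 relative TP73. A window of chromosome 2 with KLHL29 and ATAD2B (23000001 to 24000000) held 20 K-KD and 56 EV peaks. In chromosome 11 the window from 3000001 to 4000000, next to the KCNQ1 domain, held 34 K-KD and 76 EV peaks with 11 kept, and contains OSBPL5, CARS1, the calcium sensor STIM1 and the nuclear pore gene NUP98. OSBPL5 and CARS1 are also in the list of 11p15.5 genes described below, so their peaks enter both counts. The window of chromosome 4 with WFS1, the gene of Wolfram syndrome, from 6000001 to 7000000, held 40 K-KD and 75 EV peaks. The 5 windows with the highest kept share had no protein-coding gene and lay in the gaps of chromosomes 16, 10 and 7. Gained peaks were most numerous at 59000001 to 60000000 of chromosome 7, with 117. Gene-dense windows also gained many: 72 at 1000001 to 2000000 of chromosome 16, where 131 of 275 EV peaks were kept, and 70 at the same positions of chromosome 19, where 136 of 274 were kept.

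The other lists, which played no part in defining the classes, separated kept peaks from the rest. Of gained peaks 21.8% also lay under a K rep KO peak, 18.3% under a K non-rep KO peak and 10.5% under a WT peak. Of kept K-KD peaks the shares were 65.4%, 60.4% and 47.6%, and of kept EV peaks 66.2%, 61.0% and 47.8%. Of lost peaks they were 24.9%, 21.7% and 11.7%. No other list had a peak at 63.8% of gained, 20.6% of kept K-KD, 20.1% of kept EV and 60.1% of lost peaks. The difference between gained and lost peaks was small at equal width: above 300 and up to 500 bp a K rep KO peak lay over 17.6% of gained and 18.0% of lost peaks, and over 47.1% of kept K-KD and 42.1% of kept EV peaks. EV peaks found in none of the other lists were kept for 15.3%, those found in 1 for 32.2%, in 2 for 51.8% and in all 3 for 82.8%. K-KD peaks were shared with EV for 31.1%, 56.0%, 76.3% and 94.7% over the same steps. The median width over these steps ran from 403 to 1087 bp in K-KD and from 422 to 1289 bp in EV, so width moved along with them and its part in the shares was not tested here.

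**Figure D4:**
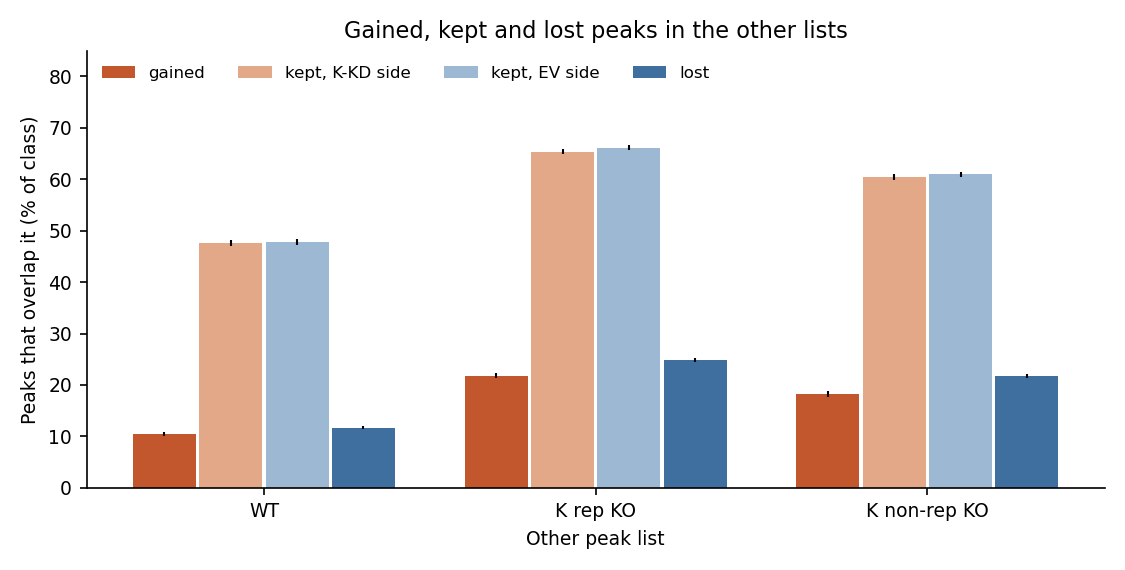
Share of gained, kept and lost peaks that overlap a peak of the WT, K rep KO or K non-rep KO list, in percent of the class, with Wilson 95% intervals (counting error only). Gained and lost peaks sit at 10.5% and 11.7% in WT, and kept peaks at 47.6% and 47.8%.

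Protein-coding genes with 2000 bp on either side were then counted. Of 14543 such gene regions with a peak in K-KD or EV, 9750 (67.0%) held fewer peaks in K-KD, 2101 (14.4%) more and 2692 (18.5%) the same number. With EV reduced to the length of K-KD, 5461 held fewer and 4813 more, so these counts rest on the length of the lists. EV peaks were present and none kept in 38.8% of the gene regions with an EV peak, and in 25 of 1268 (1.97%) of those with 10 or more EV peaks.

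Those 25 include the 10 genes with the most EV peaks and none kept. SARDH, the mitochondrial sarcosine dehydrogenase gene (chromosome 9, 133659418 to 133739955), held 3 K-KD and 21 EV peaks, beside 3 in K non-rep KO, 7 in K rep KO and 2 in WT. The 3 K-KD peaks of SARDH overlapped none of the 21. WWOX, a tumour suppressor gene at a chromosomal fragile site, held 7 K-KD and 18 EV peaks, and K non-rep KO held 13, K rep KO 11 and WT 3. It is 1113 kb long, so its peaks are sparse in every list. TRPV3, a heat-activated cation channel gene, held 1 K-KD and 15 EV peaks. At a −log10 q of at least 5 TRPV3 held no EV peak, so its EV peaks were weak ones. ZNF536, a zinc finger repressor gene, held 6 K-KD and 15 EV peaks. NPAS2, a circadian clock transcription factor gene, held 2 K-KD and 14 EV, and RRM2, for a subunit of ribonucleotide reductase, 3 K-KD and 14 EV peaks. TMEM266 held 2 K-KD and 14 EV, and VAC14, a scaffold of phosphoinositide kinase complexes, 5 K-KD and 14 EV peaks. KIF26B, a kinesin family gene, held 0 K-KD and 13 EV peaks, beside 5 in K non-rep KO, 2 in K rep KO and 3 in WT. ADPRHL1 held 5 K-KD and 12 EV peaks. The choice by EV peaks favours a high rank of EV. In all 10 genes EV had the most peaks of the 5 lists, as it had in 87.9% of the 1268 gene regions with 10 or more EV peaks. K-KD had the fewest of the 5 in KIF26B alone. At a −log10 q of at least 5 most EV peaks of these genes fell away. EV then held 8 peaks in SARDH, 6 each in TMEM266 and VAC14, 5 in ZNF536 and 4 each in WWOX and NPAS2. It held 3 in RRM2, 2 each in KIF26B and ADPRHL1 and 0 in TRPV3. K-KD then held 0 to 2 peaks in each gene. Over all peaks, exact intervals of the ratio of K-KD to EV included 1 in ADPRHL1 (0.115 to 1.27), ZNF536 (0.127 to 1.09) and VAC14 (0.101 to 1.05). They lay below 1 in the others of these 10 genes.

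The 10 genes with the highest kept shares were 17.1 to 108 kb long. SLC38A10, an amino acid transporter gene of chromosome 17, held 20 K-KD and 27 EV peaks, of which 22 were kept. PIEZO1, the mechanically gated channel gene of chromosome 16, held 27 K-KD and 23 EV peaks, with 17 kept and 10 gained. SCAMP4, which codes for a secretory carrier membrane protein, held 10 K-KD and 11 EV peaks with 9 kept, and TELO2, which stabilises kinases of the PIKK family, 9 K-KD and 10 EV peaks with 8 kept. ACSF3, of mitochondrial fatty acid synthesis, held 14 K-KD and 13 EV peaks with 10 kept. USP36, a nucleolar deubiquitinase gene, held 10 K-KD and 13 EV peaks with 10 kept. GNA11, a G protein subunit gene, held 10 K-KD and 12 EV, and the readthrough locus TPTEP2-CSNK1E 13 K-KD and 12 EV, with 9 kept in each. RASA4B (10 K-KD and 12 EV) and the polycystin gene PKD1 (18 K-KD and 13 EV), with 10 kept in each, have near-identical copies in the genome, so their reads are uncertain. In WT these 10 genes held 0 to 6 peaks, and in the 2 knockout lists 3 to 23.

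Gained peaks were at least 2 times as many as EV peaks in 10.5% of the gene regions with a K-KD peak. FER1L5, a ferlin family gene (chromosome 2, 96642764 to 96704883), had 10 K-KD peaks, 9 of them gained, and 4 EV peaks. In FER1L5 K non-rep KO had 5 peaks, K rep KO 4 and WT 4, about the number in EV. CFAP20DC held 9 K-KD and 3 EV peaks. CEP89, of the centrosome, and CTNNA3, an alpha-catenin gene, held 8 K-KD and 3 EV each. CHD3, a remodeller of the NuRD complex, held 6 K-KD and 2 EV peaks, beside 1 in K non-rep KO, 0 in K rep KO and 0 in WT, and none of its K-KD peaks overlapped an EV peak. EFNA5, an ephrin gene, also held 6 K-KD and 2 EV peaks. CACNG2, for an AMPA receptor subunit partner, and GLDC, the glycine decarboxylase gene, held 6 K-KD and 3 EV each. FA2H, a fatty acid hydroxylase gene, held 5 K-KD and 2 EV peaks. NBPF14, with 7 K-KD and 3 EV, is 1 of many near-identical genes and is uncertain. At a −log10 q of at least 5 these numbers were lower. CHD3 and EFNA5 then held 1 K-KD and 2 EV peaks each, so the order of the lists turned. CTNNA3 held 3 K-KD and 3 EV, CEP89 and GLDC 1 K-KD and 1 EV each, and FA2H 0 K-KD and 0 EV peaks. K-KD still held more in FER1L5 (2 K-KD and 1 EV), CFAP20DC (5 K-KD and 1 EV), CACNG2 (3 K-KD and 1 EV) and NBPF14 (5 K-KD and 2 EV). Exact intervals of the ratio of K-KD to EV included 1 for all 10, for example 0.721 to 10.9 in FER1L5 and 0.536 to 30.4 in CHD3. The choice by gained peaks places K-KD above EV in advance. K-KD had the most peaks of the 5 lists in 8 of these 10 genes, beside 8.19% of the 14543 gene regions with a peak in K-KD or EV. K rep KO held more than K-KD in CTNNA3 (9 peaks) and CACNG2 (7 peaks).

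**Figure D5:**
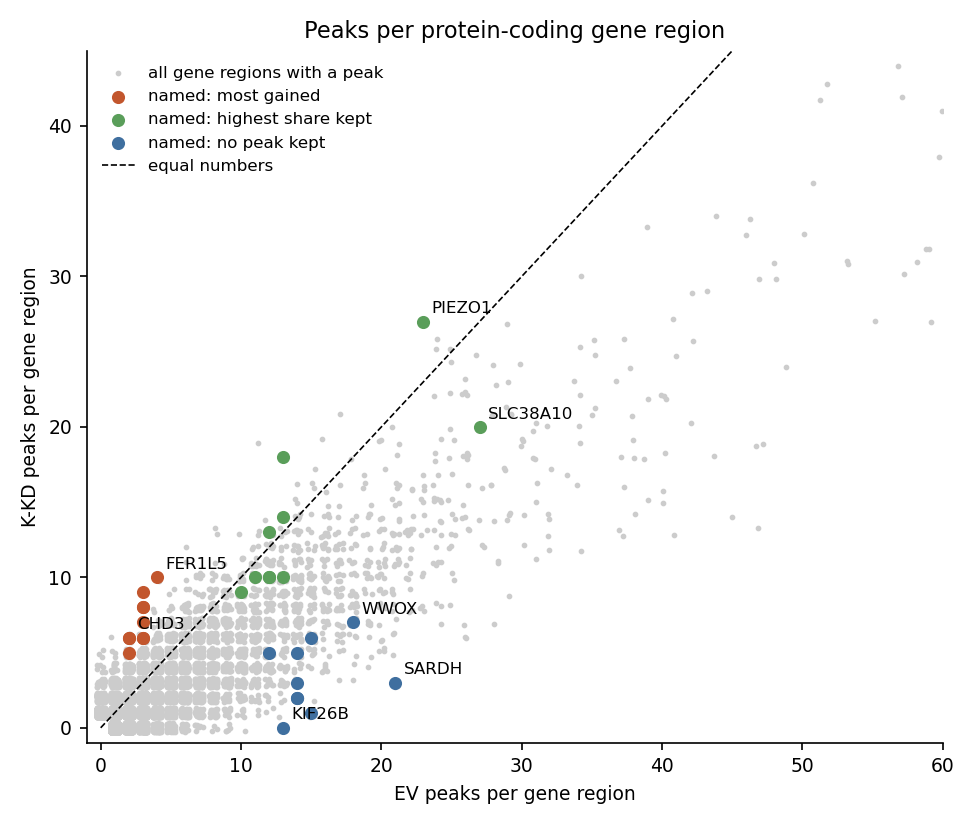
Peaks per protein-coding gene region in K-KD (vertical) against EV (horizontal), each grey point a gene region with a small random shift, with the named genes in colour and equal numbers on the dashed line; 11 gene regions with more peaks lie outside the axes. Genes with no EV peak kept, such as SARDH with 3 in K-KD and 21 in EV, lie far below the line, and those with most gained peaks, such as FER1L5 with 10 in K-KD and 4 in EV, above it at low numbers.

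Lists of related genes were set beside all protein-coding genes, where K-KD held 31266 peaks and EV 53656, a ratio of 0.583, and 32.6% of EV peaks were kept. Peaks shared by overlapping genes were counted once per list. The members named were taken from those with 5 or more EV peaks, a choice that favours genes with fewer peaks in K-KD. Members with few EV peaks and more in K-KD are thereby left out. The genes of the KCNQ1OT1 imprinted domain and its 11p15.5 neighbours kept the smallest share of the lists. There K-KD held 46 peaks and EV 125, and 16.8% of the EV peaks were kept (11.3 to 24.3). Of the 17 genes with a peak, 15 (88.2%) held fewer peaks in K-KD, 1 more and 1 the same number. Over all gene regions 67.0% held fewer. Besides KCNQ1, MRPL23, a mitochondrial ribosomal protein gene, held 6 K-KD and 17 EV peaks with 4 kept. OSBPL5, an oxysterol-binding protein gene, held 5 K-KD and 12 EV, and all 12 were lost while all 5 were gained. TRPM5, a taste-cell cation channel gene, held 5 K-KD and 11 EV peaks with 2 kept. CD81, a tetraspanin gene, held 2 K-KD and 9 EV, and TNNT3, a troponin gene, 3 K-KD and 7 EV peaks. The imprinted growth factor gene IGF2 held 2 K-KD and 6 EV, CARS1 2 K-KD and 6 EV, and LSP1 3 K-KD and 5 EV peaks. KCNQ1 supplied 45 of the 125 EV peaks. Relative to all protein-coding genes the kept share of these 11p15.5 genes stood at -15.8 percentage points over all peaks. With EV at equal length it stood at -20.96 points. With a −log10 q of at least 5 it stood at -21.7 points (-21.7 to -12.3). None of their EV peaks was kept at that limit, so the value is the lowest possible. In KCNQ1 no K-KD peak had a −log10 q above 5.70.

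Imprinted genes elsewhere had 140 peaks in K-KD and 221 in EV, and 31.7% of the EV peaks were kept (25.9 to 38.1), beside 32.6% over all protein-coding genes. Of 41 such genes with a peak 16 (39.0%) held fewer in K-KD, 10 more and 15 the same, beside 67.0% of all gene regions with fewer. TRAPPC9, a trafficking gene at an imprinted locus, held 27 K-KD and 59 EV peaks with 13 kept, and WDR27 21 K-KD and 28 EV peaks with 11 kept. IGF2R, the receptor that clears IGF2, held 12 K-KD and 11 EV peaks, yet only 2 of the 11 were kept and 10 of the K-KD peaks were gained. GRB10, an adaptor of insulin signalling, held 4 K-KD and 12 EV, with none kept. The signalling gene GNAS held 1 K-KD and 8 EV, and MEG3, a non-coding RNA gene, 1 K-KD and 5 EV peaks. COPG2 held 4 K-KD and 11 EV, ZFAT 6 K-KD and 13 EV, and WT1 7 K-KD and 7 EV peaks with 5 kept.

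Genes of the methylation machinery itself stood close to all protein-coding genes. DNA methylation and demethylation enzymes had 71 K-KD and 127 EV peaks, a ratio of 0.559, with 32.3% kept, and 13 of 18 genes (72.2%) held fewer and 2 more, beside 67.0% of all gene regions with fewer. DNMT1, the maintenance methyltransferase gene, held 9 K-KD and 18 EV peaks with 7 kept. DNMT3A, a de novo methyltransferase gene, held 10 K-KD and 20 EV peaks with 5 kept, and UHRF1, which recruits DNMT1 to replicated DNA, 9 K-KD and 20 EV peaks with 5 kept. TET1, which oxidises methylcytosine, held 8 K-KD and 15 EV peaks, and the related TET3 held 4 K-KD and 10 EV peaks. MBD3, of the NuRD complex, held 6 K-KD and 6 EV peaks. Heterochromatin genes of histone H3 lysine 9 methylation had 123 K-KD and 208 EV peaks, with 37.98% kept. Of 24 such genes 19 (79.2%) held fewer and 1 more, beside 67.0% of all gene regions with fewer. KDM4B, a histone demethylase gene, held 32 K-KD and 59 EV, and EHMT1, a histone methyltransferase gene, 33 K-KD and 46 EV, with 20 EV peaks kept in each. CHAF1A, of the chromatin assembly factor, held 10 K-KD and 15 EV, KDM4C 10 K-KD and 17 EV, CHAF1B 4 K-KD and 10 EV, and SETDB1 6 K-KD and 6 EV peaks. Class II histone deacetylase genes had 44 K-KD and 95 EV peaks, 26.3% kept. All 5 genes with a peak held fewer, beside 67.0% of all gene regions. HDAC4 supplied most of the peaks of this list, with 37 K-KD and 74 EV peaks and 20 kept. HDAC7 held 0 K-KD and 5 EV peaks.

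At the other end, HOX genes, the transcription factors of body patterning, kept the largest share of the lists. They had 38 K-KD and 48 EV peaks, with 54.2% kept (40.3 to 67.4). Of 31 genes 13 (41.9%) held fewer, 9 more and 9 the same, beside 67.0% of all gene regions with fewer. HOXB3 held 4 K-KD and 6 EV, and HOXD3 3 K-KD and 6 EV, with 3 kept in each. At a −log10 q of at least 5 the kept share of HOX genes stood at -6.73 percentage points relative to all genes. With the gene body alone it stood at 13.4 points (-1.84 to 29.5), below the clustered protocadherin genes at 13.64 points, so HOX genes were then not first. Sterol synthesis and SREBP pathway genes had 60 K-KD and 69 EV peaks, with 47.8% kept (36.5 to 59.4), and 9 of 20 genes held fewer and 7 more. SREBF2, the transcription factor of cholesterol synthesis, held 12 K-KD and 6 EV, with 5 of the 6 kept, and its partner SCAP 3 K-KD and 9 EV peaks. The sterol genes stood at -1.22 points at a −log10 q of at least 5, and at 11.2 points (-0.363 to 23.6) with the gene body alone. Clustered protocadherin genes, neuronal adhesion genes in tandem arrays, had 35 K-KD and 37 EV peaks, 45.9% kept. Their regions are nested, so PCDHGA1 with 17 K-KD and 15 EV peaks and its neighbours count the same peaks.

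Collagen genes had 147 K-KD and 274 EV peaks, 27.7% kept. Of 39 such genes 28 (71.8%) held fewer and 6 more, beside 67.0% of all gene regions with fewer. COL5A1 held 18 K-KD and 40 EV peaks with 7 kept, and COL23A1 26 K-KD and 42 EV peaks with 8 kept. COL18A1 held 18 K-KD and 39 EV peaks with 16 kept, and COL4A2, a basement membrane collagen gene, 0 K-KD and 9 EV peaks. Potassium channel genes other than KCNQ1 had 127 K-KD and 236 EV, 27.1% kept, and 45 of 71 (63.4%) held fewer and 9 more. KCNT1 held 13 K-KD and 18 EV peaks with 6 kept, and KCNN3 9 K-KD and 17 EV peaks with 4 kept. KCNIP1 held 5 K-KD and 10 EV peaks with none kept. Zinc finger genes of chromosome 19 had 224 K-KD and 391 EV, 38.4% kept, and 117 of 180 (65.0%) held fewer and 30 more. ZNF787 held 7 K-KD and 14 EV peaks with 6 kept, ZNF114 8 K-KD and 6 EV, and ZNF69 0 K-KD and 5 EV peaks. Germline, meiosis and piRNA genes had 75 K-KD and 111 EV, 41.4% kept, and 20 of 33 (60.6%) held fewer and 7 more. TEX14 held 11 K-KD and 20 EV, MOV10L1 9 K-KD and 12 EV, and PIWIL2, a piRNA-binding protein gene, 0 K-KD and 5 EV peaks.

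Smaller lists held few peaks. Innate nucleic acid sensing and interferon genes had 32 K-KD and 40 EV peaks (47.5% kept), and 8 of 22 held fewer and 6 more. Senescence and secretory genes had 25 K-KD and 35 EV (37.1% kept), and 8 of 13 held fewer and 2 more. Housekeeping genes had 14 K-KD and 40 EV (27.5% kept), and 12 of 15 held fewer and 1 more. Olfactory receptor genes had 16 K-KD and 36 EV (36.1% kept), and 19 of 25 held fewer and 2 more. The 67.0% of all gene regions with fewer peaks in K-KD is the level against which these counts stand, and no list was tested.

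The widest and strongest peaks of each class show where the extremes lay. The widest peak of both lists was a kept one in the gap of chromosome 10, 20100 bp in K-KD (42066661 to 42086760) and 21569 bp in EV (42066598 to 42088166). A kept peak of chromosome 7, 14182 bp in K-KD and 16130 bp in EV (from 63750545 and 63748673), lay over a cluster of annotated genes known only by LOC names. The 5 kept peaks of highest −log10 q were all in the gap of chromosome 1, in each list, led by a peak at 125178194 to 125183592 in K-KD and 125178190 to 125183634 in EV. All 5 were in every other list. Among gained peaks the 5 widest lay in gaps, 3 of them in that of chromosome 7, and the widest measured 3358 bp. The widest was also in WT and K rep KO. Those of 3339 bp (chromosome 7) and 3329 bp (chromosome 12) were in WT and both knockout lists. That of 3223 bp (chromosome 7) was also in K rep KO, and that of 3200 bp (chromosome 13) in WT and K non-rep KO. The gained peak of highest −log10 q, 34.5, lay at 8253942 to 8254259 of chromosome 21 over RNA18SP5, an 18S ribosomal RNA pseudogene, and was in no other list. Another, at 8439683 to 8440015, lay over RNA45SN1, which codes for the ribosomal RNA precursor. Ribosomal RNA genes are present in many copies, so the reads of both are uncertain.

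The 5 strongest lost peaks were 309 to 921 bp wide. The strongest, with −log10 q of 172 and 254 fragments at the summit, lay at 80262912 to 80263258 of chromosome 18, with PARD6G, a cell polarity gene, as the nearest protein-coding gene at 15.54 kb. Both knockout lists had a peak there and WT had none. The next began at base 10001 of chromosome 1, was 471 bp wide and was in the same lists. It lies near the end of the chromosome. Whether reads of these strongest lost peaks also align elsewhere was not checked. A lost peak of 681 bp on the X chromosome (17245006 to 17245686), 48.5 kb from REPS2, had the highest fold enrichment of the strongest 5, at 20.6, and no counterpart in any other list. The lost peak in ARRDC5 (4893752 to 4894672 of chromosome 19), with −log10 q of 54.8, was present in both knockout lists and in WT. That in EIPR1 (3221128 to 3221436 of chromosome 2) was in no other list. Among the 5 widest lost peaks, the widest, of 6167 bp, lay in the gap of chromosome 8, and 1 of 4764 bp lay in that of chromosome 1. Another, of 4865 bp, lay 57.8 kb from PAPOLG, a poly(A) polymerase gene (chromosome 2, 60697010 to 60701874). A further 1 of 3763 bp lay in NSUN6, an RNA methyltransferase gene (chromosome 10, 18555863 to 18559625), and 1 of 3722 bp overlapped TEDC1 (chromosome 14, 105496896 to 105500617). The peaks near PAPOLG, in NSUN6, at TEDC1 and in the gap of chromosome 8 were present in both knockout lists and in WT. That in the gap of chromosome 1 was in WT and K non-rep KO but not in K rep KO. Lost peaks have no counterpart in K-KD by definition.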

How the data were processed

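The authors deposited 1 MACS2-style narrowPeak list per condition. Bowtie2, MACS2 and deepTools were used with GRCh38, per the submitters' processing notes, without versions or settings, and whether libraries were pooled is not stated. Each deposited peak has a fold enrichment (a ratio over the caller's background at the summit), a −log10 p, a −log10 q and a score, all the authors' values, which here rank, filter or describe peaks of the same list. Lists were assigned to conditions by their names. In both knockout lists the peak names have prefixes that differ from the list names. There was 1 further list whose name matched no sample label, not used here.

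Only chromosomes 1 to 22 and X were analysed, so 3.56% of K-KD and 3.90% of EV peaks fell away. Coordinates are 1-based. Overlaps were computed with Python 3.11.15, NumPy 2.4.6, pandas 2.3.3 and SciPy 1.17.1 after tests on simulated lists. Shares carry Wilson and ratios exact (Clopper-Pearson) 95% intervals. These cover counting error only, and neighbouring peaks are not independent, so they are too narrow. The lists give no read counts. Summit pileups were solved from fold enrichment as (pileup + 1)/(background + 1) and −log10 p as an upper Poisson tail within 0.001, which worked for 99.9% of peaks of each list.

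Gene positions and promoter windows came from RefSeq (GRCh38.p14), matched by symbol. The promoter windows cover only some genes, and those of chromosome 8 were not analysed here. The gene region was the body and 2000 bp either side. Named genes were the 10 with the most EV peaks and none kept, the 10 with the highest kept share among those with 10 or more EV peaks, and the 10 with the most gained peaks among those with gained peaks at least 2 times their EV peaks. Members of the gene lists with 5 or more EV peaks, of which the main ones are given, and genes at the 5 widest and 5 strongest peaks of each class were added. The classes, gene lists and rules were chosen with earlier results of these data known. Alternatives were other overlap rules (50% of the shorter peak, a summit inside the other peak, within 500 bp), −log10 q of 5 or more, fold enrichment of 4 or more, EV reduced to the length of K-KD by −log10 q, peaks within 1000 bp merged, gaps left out, and other gene regions.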

Additional observations from a re-analysis of the deposited data

How the results depend on the processing

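No paired analysis was possible because each condition has 1 list and no result comes from a test. The shares, the differences in width and location and the excess of gene regions with fewer K-KD peaks kept their direction under each alternative run for them. The share with a WT peak was lower in gained than in lost peaks as reported, and the other way round with EV at the length of K-KD. With an overlap of at least 50% of the shorter peak 54.1% of K-KD and 32.5% of EV peaks were shared, lost peaks lay in protein-coding genes more often than kept ones by 8.10 percentage points, and 11.4% of gained and 12.1% of lost peaks had a WT peak. With a summit inside the other peak the shares were 55.6% and 33.4%, and 11.1% of gained peaks had a WT peak. Within 500 bp they were 62.8% and 38.7%, kept EV peaks were wider than lost ones by a median of 291 bp (331 bp as reported), the difference in genes was 6.13 points and 9.99% of gained peaks had a WT peak. At a −log10 q of at least 5, with both lists so limited, 57.1% of K-KD and 26.0% of EV peaks were shared, 1180 gene regions held more peaks in K-KD against 2101 as reported, 7455 were gained and 28054 lost, the width difference was 638 bp, that in genes 13.1 points, and 23.5% of gained and 25.4% of lost peaks had a WT peak. Of the same strong peaks 74.8% in K-KD and 49.05% in EV overlapped a peak of any strength in the other list. With fold enrichment of 4 or more the values were 47.0% and 25.9% shared, 442 bp, 5.18 points, and 17.1% and 18.9% with a WT peak. With EV at the length of K-KD they were 44.8% and 42.96% shared, 30756 lost, 441 bp, and 15.1% and 14.3% with a WT peak, 5461 gene regions held fewer peaks in K-KD and 4813 more. Merging peaks within 1000 bp gave 59.01% and 36.7% shared, 574 bp, 6.41 points and 9.84% of gained peaks with a WT peak. Leaving out the gene-free gaps gave 57.1% and 32.9% shared, 293 bp, 2.05 points, and 7.79% of gained and 10.6% of lost peaks with a WT peak. The counts of gene regions with more peaks in K-KD (under each setting), and those with fewer at the −log10 q limit and without gaps, were chosen after seeing the data.

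At a −log10 q of at least 5 the kept share of HOX genes lay at -6.73 and that of sterol genes at -1.22 percentage points relative to all protein-coding genes, both above 0 over all peaks. The cause was not tested. With EV at equal length ADPRHL1 held 5 K-KD and 3 EV peaks. Each value rests on 1 list per condition, and peaks of 6 to 10 fragments lie near the calling limit, where presence in a list is least certain.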
